A study of Rattus norvegicus with 30 samples.

Results

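The Slc25 family holds the carriers that move metabolites, nucleotides and ions across the inner membrane of mitochondria. Its members were taken here as every gene whose probe sets carry a single symbol made of Slc25a and a number, each represented by its brightest probe set over the 30 arrays. That rule gave 38 genes with 56 probe sets, of 14217 genes with a single symbol on the array. For 26 genes there was 1 probe set, for 9 there were 2, for 2 there were 3 and for Slc25a15 there were 6. The GRCr8 gene table lists 49 genes of the family, of which 10 had no probe set with a single symbol and 1 was not analysed here. Of the 38 members, 34 lay above the filter on low signals, as did 10627 of all genes, and these 34 were tested. Slc25a18, Slc25a21, Slc25a31 and Slc25a34 lay below it.

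Carriers of this family share a fold of repeated pairs of membrane-spanning helices and mostly exchange one solute for another, so that the enzymes of the mitochondrial matrix and those of the cytosol can work on the same pools. In liver they serve ATP export, the malate-aspartate shuttle, the urea cycle, gluconeogenesis and the supply of cofactors such as coenzyme A to the matrix. Clofibrate, a lipid-lowering fibrate, is a ligand of PPAR-alpha, a nuclear receptor that controls many genes of fatty acid oxidation in rodent liver.

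Primary hepatocytes of male Sprague Dawley rats, bought frozen, were grown on collagen under a Matrigel overlay and dosed on day 3 of culture. The 6 groups were DMSO for 24 h, 60 uM clofibrate for 24 h, 1000 uM clofibrate for 24 h, DMSO for 48 h, 60 uM clofibrate for 48 h and 1000 uM clofibrate for 48 h. DMSO at 1% was the vehicle, all groups shared the thawing, plating and overlay, and each group held 5 separately cultured wells with 1 array each. Whether wells came from different animals is not said in the labels, and p-values here cover the spread over wells only. Values are MAS5 signals on a linear scale, changes are differences of mean log2 signal ± the standard error (SE) of a limma fit over all 30 arrays, and a member passed where the adjusted p of limma was under 0.05 after Benjamini-Hochberg adjustment over all probe sets tested.

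Every array had a trimmed mean signal of 1501, which fixes the total by scaling. Arrays of 1 group correlated at 0.929 to 0.95 over all probe sets, and the lowest between groups was 0.915. Replicate 1 of DMSO at 48 h had the highest residual SD, 0.336, against at most 0.297 on the other arrays. The 8 hepatocyte markers on the array were above the floor, the signal of bacterial control sets with no target in the samples, in every group. Their summed signal was 497700 to 556500 in DMSO and 414900 to 460600 at 1000 uM at 24 h, and 447500 to 535200 and 394400 to 413700 at 48 h. The summed signal of 7 Kupffer cell markers was 10310 to 12060 in DMSO and 7341 to 9721 at 1000 uM at 24 h, and 9520 to 10750 and 6591 to 7389 at 48 h, with Adgre1 under the floor in 5 of 6 groups. The sum of 3 bile duct markers was 9765 to 11190 and 7035 to 8051 at 24 h, and 12530 to 14990 and 9809 to 10370 at 48 h, with Krt7 under the floor in every group. Sums of endothelial, stellate and lymphoid markers overlapped between DMSO and 1000 uM at both times. The first 3 sums were lower at 1000 uM than in DMSO at both times, alongside the changes of the members below, but a few bright genes carry them. Of the 4 tested Kupffer cell markers only Lyz2 passed, at -0.59 ± 0.08 and -0.85 ± 0.08. The others, Cd68, Clec4f and Csf1r, were at -0.25 to -0.01 at 24 h and at 0.16 to 0.38 at 48 h. The bile duct sum is mainly Epcam, its only tested marker, at -0.44 ± 0.05 and -0.43 ± 0.05. Acta2 was the only tested stellate marker to pass, at -0.56 ± 0.13 and -0.49 ± 0.13. Des, Col1a1 and Col3a1 were at -0.13 to 0.17 at 24 h and at 0.10 to 0.64 at 48 h. Pecam1 was the only tested endothelial marker to pass, at 0.70 ± 0.26 at 48 h only, with Kdr at -0.19 and Tek at 0.03. No lymphoid marker was tested. Of the 8 hepatocyte markers 6 fell at 24 h and 4 at 48 h, beside 20.5% and 26.8% of all genes. Tat fell by most (-0.94 ± 0.08 and -1.31 ± 0.08), and the other falls were -0.36 to -0.15 at 24 h and -0.82 to -0.19 at 48 h. Hnf4a was at 0.01 ± 0.05 and -0.01 ± 0.05. At 48 h Alb, Ttr and Apoa1 were at 0.00 ± 0.07, -0.01 ± 0.06 and -0.06 ± 0.07. These changes were measured beside those of the members, and their part in the members' changes was not tested. In such cultures, fewer cells of a type and less RNA per cell cannot be told apart.

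Promoter sequences are shown for 4 members: Slc25a42 and Slc25a34, which had the largest rises at 1000 uM, and Slc25a29 and Slc25a15, which carry the same class of substrates and fell together. The table of RefSeq promoters, on build GRCr8, held 33 of the 38 members with 34 windows, and each sequence below gives the 250 bases before the annotated start, read 5′ to 3′ on the gene's strand. The windows are chr16:19247724-19247973 on the + strand for Slc25a42, chr5:159219893-159220142 on the - strand for Slc25a34, chr6:133517198-133517447 on the - strand for Slc25a29 and chr16:76336620-76336869 on the + strand for Slc25a15. Capitals mark AGGTCA, the core hexamer of nuclear receptors such as PPAR-alpha, and CCAAT, a common promoter box, on either strand, so that TGACCT and ATTGG are the same motifs read on the other strand.
Slc25a42: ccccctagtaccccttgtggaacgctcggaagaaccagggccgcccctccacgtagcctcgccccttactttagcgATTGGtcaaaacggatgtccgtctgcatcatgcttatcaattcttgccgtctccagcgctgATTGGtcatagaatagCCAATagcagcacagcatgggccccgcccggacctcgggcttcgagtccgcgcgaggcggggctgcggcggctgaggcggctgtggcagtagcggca
Slc25a34: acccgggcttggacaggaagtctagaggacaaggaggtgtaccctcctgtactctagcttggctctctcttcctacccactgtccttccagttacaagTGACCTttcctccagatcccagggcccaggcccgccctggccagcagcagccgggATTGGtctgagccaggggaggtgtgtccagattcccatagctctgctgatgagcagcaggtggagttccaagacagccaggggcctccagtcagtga
Slc25a29: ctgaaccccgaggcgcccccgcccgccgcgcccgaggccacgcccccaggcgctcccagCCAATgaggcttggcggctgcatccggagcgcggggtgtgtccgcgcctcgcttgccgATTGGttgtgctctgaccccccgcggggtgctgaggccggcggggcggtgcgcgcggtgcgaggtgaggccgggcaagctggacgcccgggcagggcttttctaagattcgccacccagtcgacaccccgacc
Slc25a15: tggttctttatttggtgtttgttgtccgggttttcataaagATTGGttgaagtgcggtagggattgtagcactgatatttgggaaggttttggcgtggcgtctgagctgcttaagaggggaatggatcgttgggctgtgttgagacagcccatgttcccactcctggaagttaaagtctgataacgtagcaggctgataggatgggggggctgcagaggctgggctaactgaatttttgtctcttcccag
The window of Slc25a42 held 3 CCAAT matches, that of Slc25a29 held 2 and those of Slc25a34 and Slc25a15 held 1 each. Of these 4, only the window of Slc25a34 held AGGTCA, once and on the other strand, at 152 bases before the start. Over the 34 member windows AGGTCA occurred in 5, which is 14.7%, against 14.1% of all 33469 windows of the table. CCAAT occurred in 19 of the 34, or 55.9%, against 34% of all. The direct repeat AGGTCANAGGTCA was in 17 of all windows, 0.0508%, and in 0 of the members' windows. These matches describe letters in 250 bases only.

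Clofibrate changed 24 of the 34 tested carriers in at least 1 of the 4 comparisons with DMSO, where 52% of all 10627 genes passed in at least 1, and at 1000 uM more of them rose than fell. At 24 h and 1000 uM, 11 of 34 members rose (32.4%) and 5 fell (14.7%), against 13.4% of all genes tested rising and 20.5% falling. At 48 h and 1000 uM, 15 rose (44.1%) and 6 fell (17.6%), against 17.1% and 26.8% of all genes. The lower dose moved fewer members than 1000 uM. At 60 uM and 24 h 2 rose (5.88%) and 3 fell (8.82%), against 4.55% and 3.76% of all genes. At 60 uM and 48 h 5 rose (14.7%) and 4 fell (11.8%), against 5.7% and 5.79%. The members' median log2 change was 0.101 at 1000 uM and 24 h and 0.171 at 48 h, while the median over all genes was -0.058 and -0.057. At both times 1000 uM raised 8 members and lowered 5, and 60 uM raised 2 of these, Slc25a42 and Slc25a10, and lowered 3, Slc25a29, Slc25a15 and Slc25a33. These 5 members passed in all 4 comparisons. The share of all genes that passed at both times, or in all 4 comparisons, was not counted, so these counts have no background beside them. No change against DMSO passed for 10 members, Slc25a1, Slc25a4, Slc25a12, Slc25a27, Slc25a28, Slc25a36, Slc25a37, Slc25a41, Slc25a46 and Slc25a53. The split of calls depended on the scaling: at 1000 uM and 24 h it was 11 higher and 5 lower as deposited, 14 and 5 with each array centred on its median, and 20 and 5 when scaled to the spiked-in poly-A controls. The same scaling to spiked-in controls shifted the median change over all probe sets from -0.051 to 0.183 at that dose and time and gave 18 members higher and 5 lower at 48 h, where the median moved from -0.042 to 0.107. Among all genes, the share of calls that were higher at 1000 uM and 24 h went from 39.4% to 54.1% with median centring and to 82.7% with spiked-in controls, and at 48 h from 39% to 40.4% and 65%. At 60 uM the members' split with spiked-in controls was 2 and 2 at 24 h and 2 and 4 at 48 h, and with median centring 2 and 2 and 3 and 4, while the share of higher calls over all genes went from 54.8% to 77.5% with median centring and 91.7% with spiked-in controls at 24 h, and from 49.6% to 41.8% and 68.9% at 48 h.

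**Figure D1:**
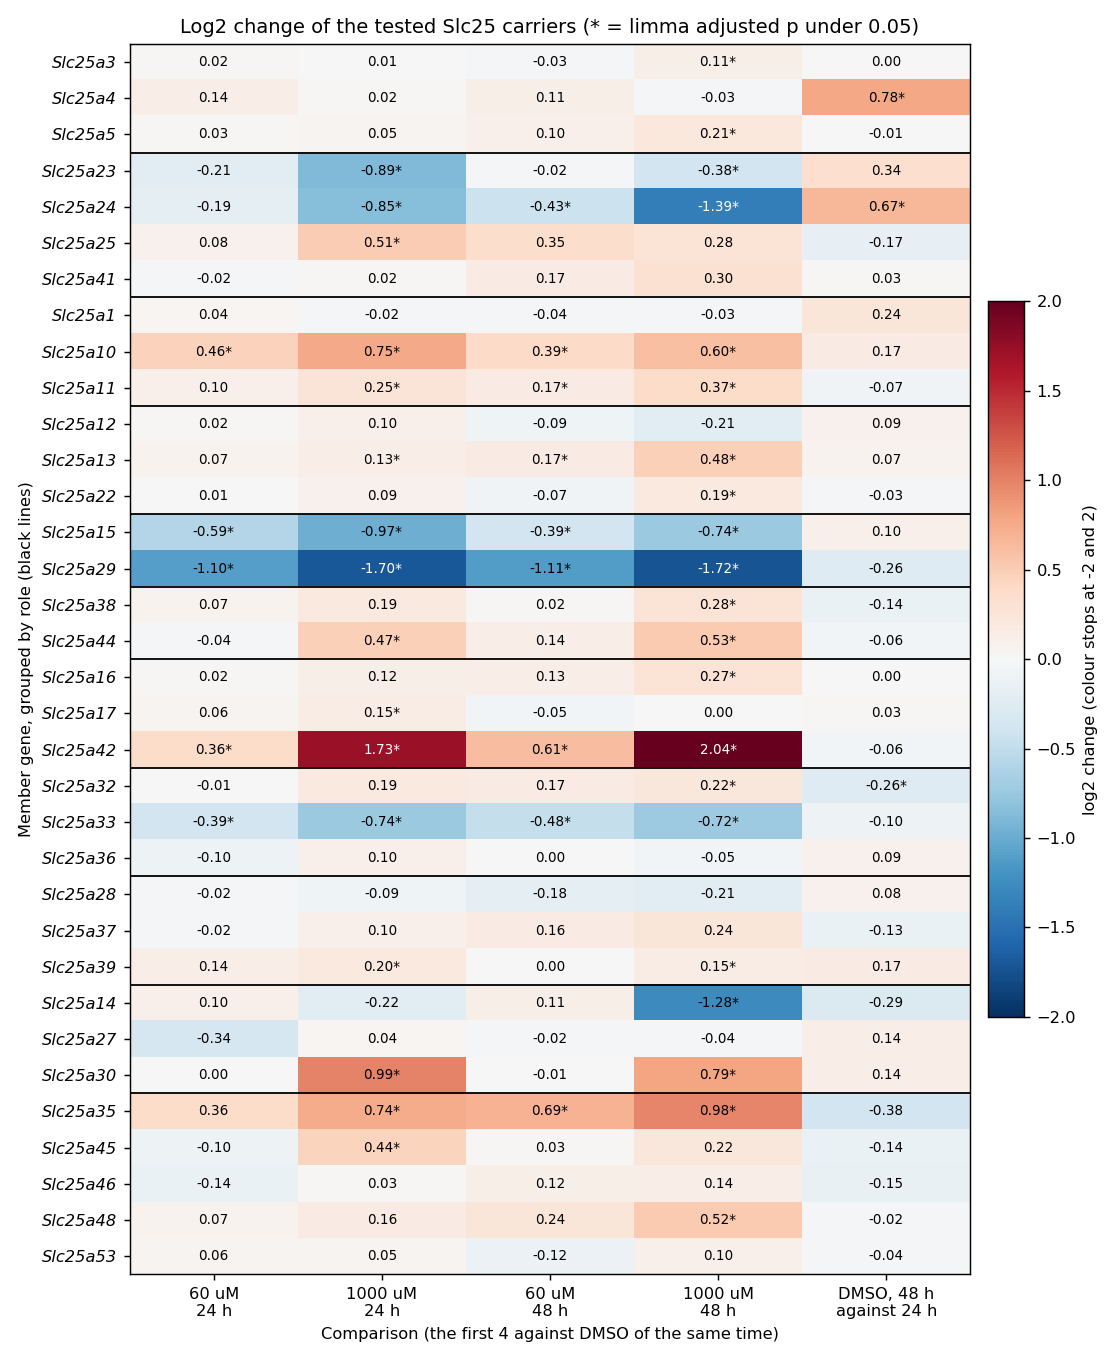
Log2 change of the 34 tested carriers (rows, grouped by role with black lines) in the 4 comparisons with DMSO and in DMSO at 48 h against 24 h (columns); an asterisk marks a limma adjusted p under 0.05 and the colour scale stops at -2 and 2. Slc25a42 is the darkest red, with 1.73 and 2.04 at 1000 uM, and Slc25a29 the darkest blue over both doses, with -1.10 to -1.72.

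Among the carriers of coenzyme A and related cofactors, Slc25a42, which brings coenzyme A into the matrix in exchange for adenine nucleotides, had the largest rise of the tested members. At 24 h its signals were 1627, 1513, 1421, 1585 and 1489.9 in DMSO, 1907, 2385, 1883, 1902 and 1736 at 60 uM and 4485, 5092, 5084, 5179 and 5547 at 1000 uM. At 48 h they were 1694, 1549, 1492, 1294 and 1314, 2399, 2647, 2151, 2055 and 1996 and 5844, 6355, 5827, 5648 and 6443 in the same order. At each time the lowest array at 60 uM lay above the highest in DMSO, and the lowest at 1000 uM lay well above the highest at 60 uM. Slc25a42 rose by 0.36 ± 0.08 on the log2 scale at 60 uM (limma adjusted p = 0.0058) and by 1.73 ± 0.08 at 1000 uM (1.61e-17) at 24 h. The rises at 48 h were 0.61 ± 0.08 (2.37e-06) and 2.04 ± 0.08 (1.32e-19), the last of which is a 4.12-fold higher signal. Slc25a16, linked to coenzyme A in mitochondria, rose by 0.27 ± 0.06 at 1000 uM and 48 h only among these 4 comparisons, from 4909 ± 133 to 5925 ± 301 (SD, n = 5). Slc25a17, a peroxisomal carrier of coenzyme A and other nucleotide cofactors, rose by 0.15 ± 0.05 at 1000 uM and 24 h, from 6132 ± 226 to 6819 ± 358. That call was lost without replicate 1 or 3 at 1000 uM or replicate 2 of DMSO, with changes of 0.13 to 0.14 and adjusted p of 0.05 to 0.0613, and at 48 h the change of Slc25a17 was 0.00 ± 0.05 (0.977).

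The carriers of ornithine and other basic amino acids both fell at both doses and both times. Slc25a29 moves arginine, lysine and ornithine across the inner membrane. In DMSO at 24 h its signals were 4117, 5069, 4590.4, 4551 and 4485, against 1926, 2071, 2455, 2115 and 2118 at 60 uM and 1264, 1327, 1529.8, 1379 and 1517 at 1000 uM. The 48 h signals were 4631, 4626, 3663, 2887 and 3513 in DMSO, 1391, 2246, 1810.5, 1843 and 1603 at 60 uM and 1245, 1239.7, 1136, 1163 and 1015 at 1000 uM. The 3 groups of each time did not overlap, with DMSO highest and 1000 uM lowest, and the DMSO wells at 48 h spread more than those at 24 h. Slc25a29 fell by 1.10 ± 0.11 at 60 uM and by 1.70 ± 0.11 at 1000 uM at 24 h, and by 1.11 ± 0.11 and 1.72 ± 0.11 at 48 h (limma adjusted p = 7.53e-09, 2.94e-14, 4.22e-09 and 1.55e-14). The signal was thus 3.25-fold lower at 1000 uM and 24 h and 3.29-fold lower at 48 h, and the falls at 60 uM were 2.14-fold and 2.17-fold.

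Slc25a15, which exchanges ornithine for citrulline in the urea cycle, is the member with the most probe sets. Its brightest set gave 18422, 18728, 17499, 18371 and 18520.0 in DMSO, 12443, 11585, 12169, 12066 and 12724 at 60 uM and 9369, 9534, 9076, 9138 and 9709 at 1000 uM at 24 h. At 48 h the values were 19881, 19936, 18826, 18989.9 and 20536, 16408, 15150.2, 14992, 14051 and 14203 and 11878, 12208, 11583, 10825 and 12194. The wells of each group lay close together and the groups of a time did not overlap. Slc25a15 fell by 0.59 ± 0.04 and 0.97 ± 0.04 at 24 h and by 0.39 ± 0.04 and 0.74 ± 0.04 at 48 h for 60 uM and 1000 uM (limma adjusted p = 1.66e-12, 5.02e-19, 1.36e-08 and 3.44e-16). All 5 of its tested probe sets fell in all 4 comparisons, by 0.77 to 0.97 at 1000 uM and 24 h and by 0.68 to 0.95 at 48 h.

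Of the 4 carriers that exchange ATP-Mg for phosphate and so set the adenine nucleotide pool of the matrix, 2 fell and 1 rose at 1000 uM and 24 h. Slc25a24 had signals of 2287, 2653, 3141, 3093 and 3247 in DMSO, 2793, 2804, 2476, 2401 and 2104 at 60 uM and 1536, 1762, 1823, 1468 and 1375 at 1000 uM at 24 h. At 48 h it had 4442, 4347, 4736, 4451 and 4793, 3008, 3254, 3574, 3741 and 3370.3 and 1777, 1750.0, 1638, 1851 and 1697. At 24 h the 60 uM wells overlapped those in DMSO, whereas the 1000 uM wells lay below both, and at 48 h the 3 groups were apart. Its falls were 0.85 ± 0.09 at 1000 uM and 24 h (limma adjusted p = 2.45e-09), 0.43 ± 0.09 at 60 uM and 48 h (0.00111) and 1.39 ± 0.09 at 1000 uM and 48 h (1.64e-14). At 60 uM and 24 h the change was -0.19 ± 0.09 (0.253). In DMSO alone Slc25a24 rose by 0.67 ± 0.09 from 24 h to 48 h (2.79e-06), while at 1000 uM the mean signal was 1593 ± 192 at 24 h and 1743 ± 80.6 at 48 h (SD, n = 5).

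Slc25a23, a second carrier of this kind, gave 1221, 926, 891, 961 and 890.1 in DMSO, 810.1, 717, 864, 906 and 904 at 60 uM and 557, 565, 488, 514 and 507 at 1000 uM at 24 h. The 48 h signals were 1509, 1444, 1197, 1103 and 983, 1142, 1200.2, 1325, 1221 and 1173 and 999.7, 790.3, 941, 993 and 1024. At 24 h the 1000 uM wells lay below all others, whereas at 48 h the highest of them lay above the lowest in DMSO. Slc25a23 fell at 1000 uM by 0.89 ± 0.11 at 24 h (7.37e-08, limma) and by 0.38 ± 0.11 at 48 h (0.00578). With spiked-in scaling the fall at 48 h did not pass, at -0.23 with an adjusted p of 0.217. Slc25a25 rose at 1000 uM and 24 h by 0.51 ± 0.12, from 712 ± 57.8 to 1014 ± 35.3, with no overlap of the wells, and its change at 48 h was 0.28 ± 0.12 (0.0558). Slc25a41 was at 444 ± 77.8 in DMSO at 24 h and 450.1 ± 82.7 at 1000 uM and did not pass.

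Among the carriers of di- and tricarboxylates, Slc25a10, which exchanges malate or succinate for phosphate, rose at both doses and both times. Its signals at 24 h were 4409.5, 4103, 3916, 3918 and 4264 in DMSO, 6139, 5381, 5602, 5539.8 and 5653 at 60 uM and 7222, 6271, 6937, 7085 and 7106 at 1000 uM. At 48 h they were 4385, 4433, 4366, 4682 and 5443, 6249, 5720.4, 5749, 6356 and 6342 and 6881, 6348, 6569, 8057 and 7495. All treated wells lay above the DMSO wells of their time, and only at 48 h did the 2 doses overlap. The rises were 0.46 ± 0.06 and 0.75 ± 0.06 at 24 h and 0.39 ± 0.06 and 0.60 ± 0.06 at 48 h for 60 uM and 1000 uM (limma adjusted p = 3.81e-06, 2.09e-11, 4.34e-05 and 1.87e-09). Slc25a11, the oxoglutarate carrier of the malate-aspartate shuttle, rose by 0.25 ± 0.05 at 1000 uM and 24 h, by 0.17 ± 0.05 at 60 uM and 48 h and by 0.37 ± 0.05 at 1000 uM and 48 h (8.2e-05, 0.014 and 9.46e-08). Its mean signal at 48 h was 7231 ± 330.0 in DMSO, 8147 ± 299 at 60 uM and 9311 ± 197 at 1000 uM (SD, n = 5). The call at 60 uM was lost with median centring and with spiked-in scaling, where the adjusted p reached 0.313. Slc25a1, the citrate carrier that feeds lipid synthesis, changed by -0.02 ± 0.10 and -0.03 ± 0.10 at 1000 uM, with 95% intervals of -0.21 to 0.18 and -0.23 to 0.16. Slc25a21, the oxodicarboxylate carrier, lay below the filter, at 141 ± 97.2 in DMSO and 71.65 ± 14.3 at 1000 uM at 24 h.

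Of the carriers of aspartate and glutamate, Slc25a13, the aspartate/glutamate exchanger of liver, changed mainly at 48 h. At 24 h its signals were 19016, 18460.5, 19826, 20208 and 21697 in DMSO, 20633, 19486, 20764, 20801 and 22104 at 60 uM and 21116, 21072, 21720.0, 21590.2 and 23293 at 1000 uM. The values at 48 h were 20294, 21609.5, 19074, 20506 and 22648, 24415, 24734, 22766, 21401 and 23595 and 29082, 28081, 29494, 27762 and 30431. Only the 1000 uM wells at 48 h stood clear of the DMSO wells of their time. Slc25a13 rose by 0.48 ± 0.05 there (limma adjusted p = 6e-10), by 0.17 ± 0.05 at 60 uM and 48 h (0.0206) and by 0.13 ± 0.05 at 1000 uM and 24 h (0.0323). The call at 60 uM was lost without replicate 1 or 3 of DMSO or replicate 1 or 2 at 60 uM, with changes of 0.14 to 0.16 and adjusted p of 0.0531 to 0.087. It was also lost with median centring (0.14, adjusted p 0.215), with spiked-in scaling (0.20, 0.345), with no intensity trend and with the compared groups alone. That at 1000 uM and 24 h was lost without replicate 1 or 2 of DMSO or replicate 3 or 5 at 1000 uM, with changes of 0.11 to 0.13 and adjusted p of 0.051 to 0.109. With no filter and with no intensity trend its adjusted p was 0.0518 and 0.0633. Slc25a22, a glutamate carrier, rose by 0.19 ± 0.07 at 1000 uM and 48 h (0.0437). This call was lost without any 1 of DMSO replicates 3, 4 and 5 and 1000 uM replicates 2, 3 and 5, with changes of 0.14 to 0.20 and adjusted p of 0.052 to 0.161. Median centring, no filter, no intensity trend and the compared groups alone also lost it, at 0.0606 to 0.0695. Slc25a12, the aspartate/glutamate exchanger of excitable tissue, did not pass. Its change at 1000 uM was 0.10 ± 0.12 at 24 h (0.58) and -0.21 ± 0.12 at 48 h (0.177). Slc25a18, the other glutamate carrier, lay under the floor in every group, with mean signals of 23.9 to 37.6.

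The relatives of the uncoupling proteins went different ways. Slc25a30 gave 1669, 2104, 1904, 2099 and 1928 in DMSO, 1533, 2111, 2099.7, 2224 and 1784 at 60 uM and 3436, 3967, 3924, 3664 and 4274 at 1000 uM at 24 h. Its 48 h signals were 2009, 2239, 1987, 2448 and 2016, 2009.6, 2257, 1939.6, 2286 and 2152 and 3837, 4109, 3239, 3579 and 3710.2. The DMSO and 60 uM wells overlapped at both times, and every 1000 uM well lay above both. Slc25a30 rose at 1000 uM by 0.99 ± 0.09 at 24 h and 0.79 ± 0.09 at 48 h (limma adjusted p = 8.44e-11 and 8.18e-09). At 60 uM its changes were 0.00 ± 0.09 and -0.01 ± 0.09, with 95% intervals of -0.18 to 0.18 and -0.19 to 0.18.

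Slc25a14, a second relative, is read by a probe set of the kind that can match several transcripts. Its 24 h signals were 392, 810.1, 806, 383 and 752 in DMSO, 715, 728, 437, 548 and 849 at 60 uM and 461, 559, 658, 687 and 296 at 1000 uM, and those at 48 h were 644, 514, 544, 483 and 314, 636, 299, 468, 543 and 842 and 362, 205, 266, 295 and 55.9. The wells scattered widely in every group, and at 48 h the highest of the 1000 uM wells lay above the lowest in DMSO. Slc25a14 fell by 1.28 ± 0.36 at 1000 uM and 48 h (limma adjusted p = 0.00451), and by 0.82 without replicate 5 at 1000 uM, the lowest well. That well, at 55.9, lay under the floor, which was 79.1 for its group, and the other wells of the group lay above it. At 24 h its change was -0.22 ± 0.36 (0.718). Slc25a27 did not pass with its brightest probe set, at -0.04 ± 0.17 at 1000 uM and 48 h, while its other tested set, of signals near the filter, was at -1.24 ± 0.40 with an adjusted p of 0.0142.

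In the group of carriers for thiamine pyrophosphate, folate or FAD, NAD and pyrimidine nucleotides, Slc25a33, which brings pyrimidine nucleotides into the matrix, fell at both doses. At 24 h its signals were 2093, 2217, 2418, 2347 and 2846 in DMSO, 2034, 1928, 1812, 1590.1 and 1712 at 60 uM and 1533, 1237, 1442, 1426 and 1496 at 1000 uM. The 48 h values were 1928, 1948, 2029, 2634 and 2636, 1590.3, 1439.6, 1748, 1606 and 1578 and 1329, 1404, 1428, 1226 and 1333. The 3 groups did not overlap at either time, DMSO being highest. Slc25a33 fell by 0.39 ± 0.09 and 0.74 ± 0.09 at 24 h and by 0.48 ± 0.09 and 0.72 ± 0.09 at 48 h for 60 uM and 1000 uM (limma adjusted p = 0.00655, 1.24e-07, 0.00057 and 1.3e-07). The call at 60 uM and 24 h was lost with median centring and with spiked-in scaling, with adjusted p of up to 0.291. Slc25a32, a carrier of folate or FAD, rose by 0.22 ± 0.07 at 1000 uM and 48 h (0.0155). That rise was lost without replicate 1 of DMSO or replicate 2 at 1000 uM, at 0.17 and 0.18, and with the compared groups alone, and its second probe set changed by -0.19 ± 0.16. Slc25a36, the other pyrimidine nucleotide carrier, did not pass, with 0.10 ± 0.13 and -0.05 ± 0.13 at 1000 uM.

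Both carriers for glycine and branched-chain amino acids rose at 1000 uM and 48 h. Slc25a44, which carries branched-chain amino acids, rose at 1000 uM by 0.47 ± 0.11 at 24 h and 0.53 ± 0.11 at 48 h (limma adjusted p = 0.000707 and 0.000125). Its mean signal went from 1823 ± 364 to 2499 ± 227 at 24 h and from 1727 ± 128 to 2505 ± 309 at 48 h (SD, n = 5). A second probe set of Slc25a44 was at 0.02 ± 0.09 and 0.20 ± 0.09 and did not pass. Slc25a38, the glycine carrier that serves haem synthesis, rose by 0.28 ± 0.10 at 48 h (0.0267), a call lost without replicate 1 or 5 of DMSO or replicate 3 at 1000 uM, at 0.24 to 0.27.

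Of the carriers of iron and glutathione, Slc25a39, which brings glutathione into mitochondria, rose at 1000 uM by 0.20 ± 0.05 at 24 h and 0.15 ± 0.05 at 48 h (limma adjusted p = 0.00398 and 0.0249). The call at 48 h was lost without replicate 1 or 3 of DMSO or replicate 5 at 1000 uM, at 0.12 to 0.14, and with median centring and quantile normalization, down to 0.05. The iron carriers Slc25a37 and Slc25a28 did not pass, with 0.24 ± 0.11 and -0.21 ± 0.11 at 1000 uM and 48 h.

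Of the 3 tested carriers of ADP, ATP and phosphate, 2 rose by small amounts at 1000 uM and 48 h and none passed in the other 3 comparisons with DMSO. Slc25a4, the ADP/ATP carrier best known from heart and muscle, changed at 1000 uM by 0.02 ± 0.05 and -0.03 ± 0.05, with 95% intervals of -0.08 to 0.12 and -0.13 to 0.07. With time in culture it rose: DMSO wells gave 12285, 14162, 14353, 13616 and 14668 at 24 h and 22828, 24319, 23525, 23852 and 24046 at 48 h. These groups were far apart, and the rise was 0.78 ± 0.05 (limma adjusted p = 1.67e-13). Slc25a5, the ADP/ATP carrier of most growing cells, rose by 0.21 ± 0.05 at 1000 uM and 48 h (0.000531), from 43370.0 ± 2200.0 to 50260.0 ± 1060.0 (SD, n = 5) with no overlap. Slc25a3, the phosphate carrier, rose by 0.11 ± 0.04 (0.0264), which was lost without any 1 of replicates 2 and 3 of DMSO and replicates 2, 3 and 5 at 1000 uM, at 0.09 to 0.10, and with median centring and no intensity trend, and was 0.01 with quantile normalization. Slc25a31, the ADP/ATP carrier of testis, lay below the filter, with mean signals of 98.9 to 182 over the groups.

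Among members with no settled substrate, or of the outer membrane, Slc25a34 and Slc25a35 had the largest rises by their brightest probe sets. Slc25a34, an orphan carrier, lay below the filter and was chosen for a full account after its values were seen. In DMSO its signals were 52.3, 56.6, 72.5, 11.4 and 7.94 at 24 h and 10.8, 39.5, 11.2, 30.2 and 35.9 at 48 h, and at 60 uM they were 33.7, 36.1, 205, 32.9 and 29 and 29.6, 9.46, 187, 35.5 and 32.5. At 1000 uM they were 248, 476, 488, 429 and 388 at 24 h and 517, 195, 308, 436 and 349 at 48 h. Every 1000 uM well lay above every DMSO well of its time, and at 60 uM replicate 3 stood above the other 4 wells at both times. The mean of DMSO lay under the floor at both times, so the fold is a bound: at 1000 uM Slc25a34 was at least 6.04-fold higher at 24 h and at least 5.23-fold higher at 48 h. Here the mean log2 signal at 1000 uM, 8.62 and 8.42, was set against 6.03, the mean over the DMSO arrays of the higher of the floor and the probe set's own log2 signal at either time. With no filter on low signals the limma adjusted p was 5.5e-05 and 1.95e-05. Against 60 uM it was at least 5.87-fold and 3.88-fold higher, and 60 uM against DMSO did not pass without the filter (0.755 and 0.727).

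**Figure D2:**
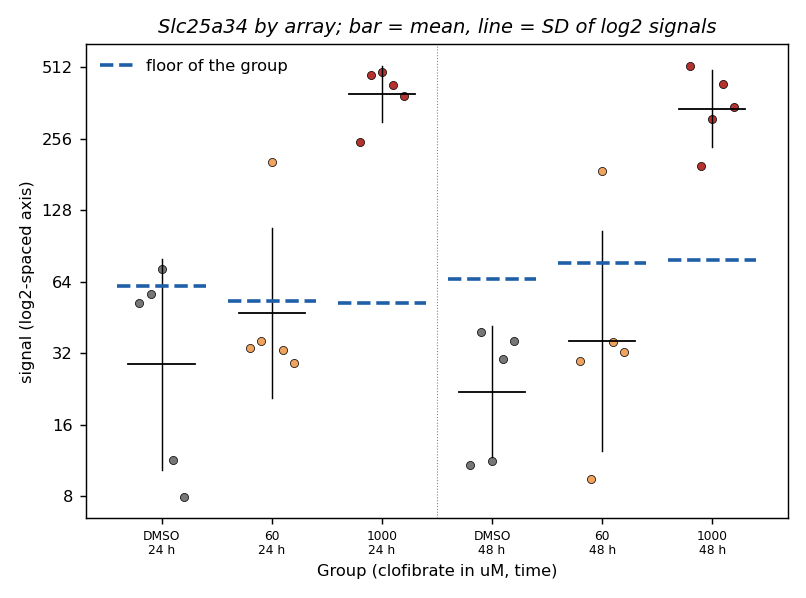
Slc25a34 signal of each of the 30 arrays on a log2-spaced axis by group; bars are means and lines SDs of the log2 signals (n = 5), and dashed blue lines are the floor of each group. The wells at 1000 uM sit between 195 and 517, above the floor, while DMSO wells sit between 7.94 and 72.5.

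Slc25a35, an orphan carrier, gave 301, 341, 298, 361 and 360.0 in DMSO, 283, 433, 465, 519 and 465 at 60 uM and 574, 333, 618, 735 and 586 at 1000 uM at 24 h. At 48 h its signals were 219, 315, 266, 212 and 274, 359, 354, 479, 452 and 424 and 527, 501, 755, 437 and 367. The treated wells at 48 h all lay above the DMSO wells, and at 24 h 1 well at 1000 uM, of 333, fell within the DMSO range. Slc25a35 rose by 0.74 ± 0.20 at 1000 uM and 24 h (limma adjusted p = 0.00475), by 0.69 ± 0.20 at 60 uM and 48 h (0.0234) and by 0.98 ± 0.20 at 1000 uM and 48 h (0.000167). The call at 60 uM was lost without replicate 1 or 4 of DMSO or replicate 3 or 4 at 60 uM, at 0.62 to 0.65, and with spiked-in scaling and the compared groups alone, at adjusted p of 0.0743 and 0.0578. Slc25a45 rose by 0.44 ± 0.13 at 1000 uM and 24 h (0.00702), and Slc25a48 by 0.52 ± 0.13 at 1000 uM and 48 h (0.00198). The second probe set of Slc25a48 rose by 0.60 ± 0.15 at 24 h and by 1.20 ± 0.15 at 48 h. Slc25a46, an outer membrane protein of mitochondrial shape, and Slc25a53 did not pass, although a dimmer set of Slc25a46 rose by 0.29 ± 0.08 at 1000 uM and 24 h.

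**Figure D3:**
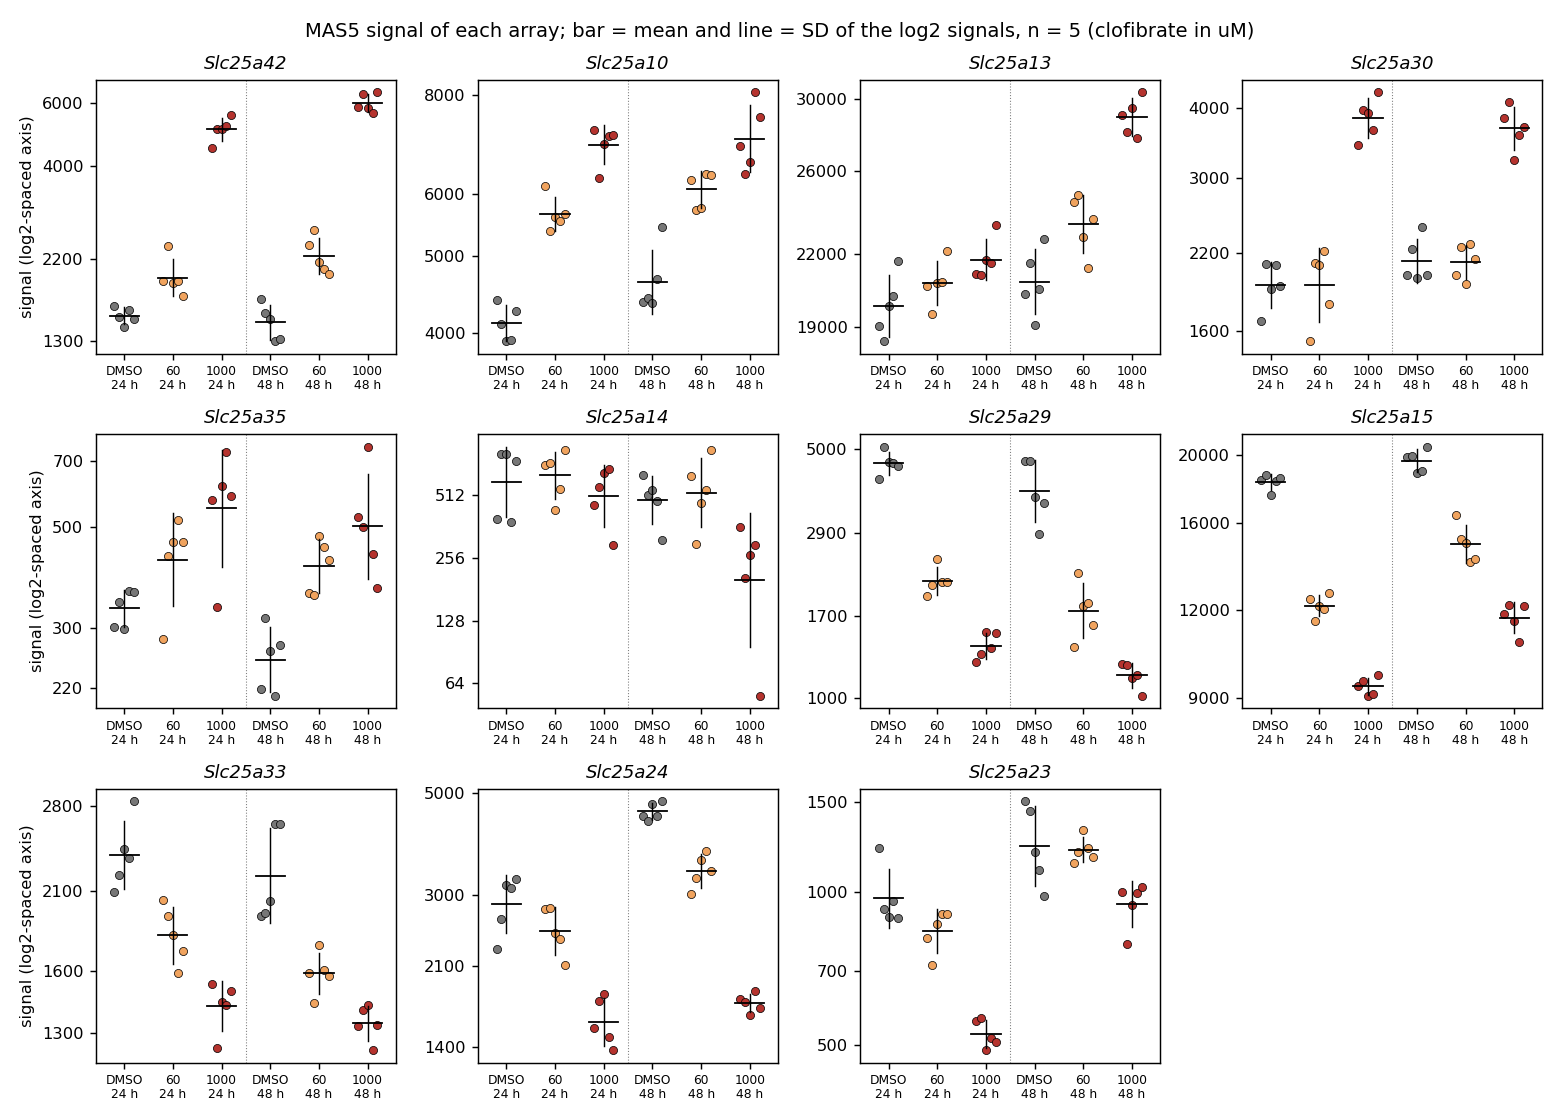
MAS5 signal of each array on a log2-spaced axis for the 11 tested members given in full, by group (DMSO, 60 uM and 1000 uM at 24 h, left of the dotted line, and 48 h, right of it); bars are means and lines SDs of the log2 signals, n = 5. The means of Slc25a42, Slc25a10, Slc25a13, Slc25a35, Slc25a29, Slc25a15, Slc25a33, Slc25a24 and Slc25a23 step with dose at both times, though not every step passed. Slc25a30 is level in DMSO and at 60 uM and higher at 1000 uM.

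Between the doses, 1000 uM against 60 uM raised 7 of 34 members at 24 h and lowered 5, against 8.75% and 12.8% of all genes. At 48 h it raised 9 and lowered 6, against 11.9% and 18.5%. With spiked-in scaling the splits were 7 and 4 at 24 h and 10 and 4 at 48 h, and the share of higher calls over all genes went from 40.6% to 71.1% and from 39.1% to 68.5%. These comparisons share their 1000 uM and 60 uM arrays with those against DMSO. Among tested members Slc25a42 had the largest rise between the doses, 1.38 ± 0.08 at 24 h and 1.43 ± 0.08 at 48 h (limma adjusted p = 2.44e-14 and 6.03e-15). Slc25a30 rose by 0.99 ± 0.09 and 0.79 ± 0.09. Slc25a24 fell between the doses by 0.66 ± 0.09 and 0.96 ± 0.09, Slc25a29 by 0.61 ± 0.11 and 0.60 ± 0.11 and Slc25a15 by 0.38 ± 0.04 and 0.35 ± 0.04. At 24 h Slc25a29 stepped by -1.10 from DMSO to 60 uM and by -0.61 from 60 uM to 1000 uM, while Slc25a42 stepped by 0.36 and 1.38, and the difference between the steps was not tested. Slc25a14 fell by 1.39 ± 0.36 between the doses at 48 h (0.00332, limma), with values of -1.61 to -0.93 over the alternatives. Its 1000 uM wells there include the 1 under the floor. Several small steps did not hold. That of Slc25a4 at 48 h, -0.14, was lost without replicate 1, 2 or 5 at 60 uM or 1 or 4 at 1000 uM, with no intensity trend, and with median centring and spiked-in scaling, at -0.11 and -0.03. That of Slc25a39 at 48 h, 0.15, was lost without replicates 2, 3, 4 or 5 at 60 uM or 3, 4 or 5 at 1000 uM, and with median centring, quantile normalization, no filter and no intensity trend, down to 0.07. That of Slc25a11 at 24 h, 0.14, was lost without replicate 3 or 4 at either dose, with the compared groups alone, and with median centring and spiked-in scaling. At 48 h the step of Slc25a10, 0.21, was lost without replicate 4 at 1000 uM (0.16), that of Slc25a23, -0.36, without replicate 2 at 1000 uM (-0.29) and with spiked-in scaling (-0.24), and that of Slc25a3, 0.14, with quantile normalization (0.06). At 24 h the step of Slc25a33, -0.35, was lost with spiked-in scaling (-0.24). Its step at 48 h did not pass, although the wells of the 2 doses did not overlap. For Slc25a35 the difference between the 2 doses did not pass, with 0.38 ± 0.20 and 0.29 ± 0.20 and 95% intervals of -0.03 to 0.79 and -0.12 to 0.70.

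With time in culture, DMSO at 48 h against 24 h raised 2 of 34 members, Slc25a4 and Slc25a24, and lowered 1, Slc25a32, against 5.1% and 3.75% of all genes. The fall of Slc25a32 was 0.26 ± 0.07 (0.0277, limma) and was lost without DMSO replicate 1 or 2 of 48 h or replicate 3 or 5 of 24 h, at -0.20 to -0.25, with the compared groups alone, and with median centring and spiked-in scaling, at -0.22 and -0.09. The count went from 3 to 5 without replicate 4 of DMSO at 48 h. With median centring 3 rose and 0 fell and with spiked-in scaling 7 rose and 0 fell, while the share of higher calls over all genes went from 57.6% to 72.1% and 93.8%.

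The effect of 1000 uM differed between the times for 4 members, 3 of which had a higher and 1 a lower effect at 48 h, against 5.27% and 5.54% of all genes. For Slc25a13 the effect at 48 h exceeded that at 24 h by 0.34 ± 0.07 (limma adjusted p = 0.000795), a rise that grew with time. For Slc25a24 the difference was -0.53 ± 0.13 (0.00543), a fall that grew, beside its rise with time in DMSO. Slc25a15 differed by 0.22 ± 0.06 (0.0116) and Slc25a23 by 0.50 ± 0.16 (0.0374), falls that were smaller at 48 h. The differences of Slc25a13, Slc25a15 and Slc25a23 were lost with median centring and with spiked-in scaling, and that of Slc25a24 was kept, while the share of higher calls over all genes went from 48.7% to 30% and 24.8%. Of the 4 other tested probe sets of Slc25a15, 1 passed for the same difference at 0.21 (0.0301), 1 was at 0.20 (0.332) and the others were at -0.06 (0.869) and -0.03 (0.907). That of Slc25a23 was lost on leaving out replicate 1 or 4 of DMSO at 24 h, replicate 3, 4 or 5 at 1000 uM and 24 h, replicate 3, 4 or 5 of DMSO at 48 h, or replicate 1, 3, 4 or 5 at 1000 uM and 48 h. Its values were then 0.42 to 0.51, with adjusted p of 0.0512 to 0.0893, and it was also lost with no filter and with the compared groups alone. For 60 uM no member's effect differed between the times by limma's adjusted p, against 0.0659% and 0.0847% of all genes, and 3 members had an unadjusted p under 0.05.

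**Figure D4:**
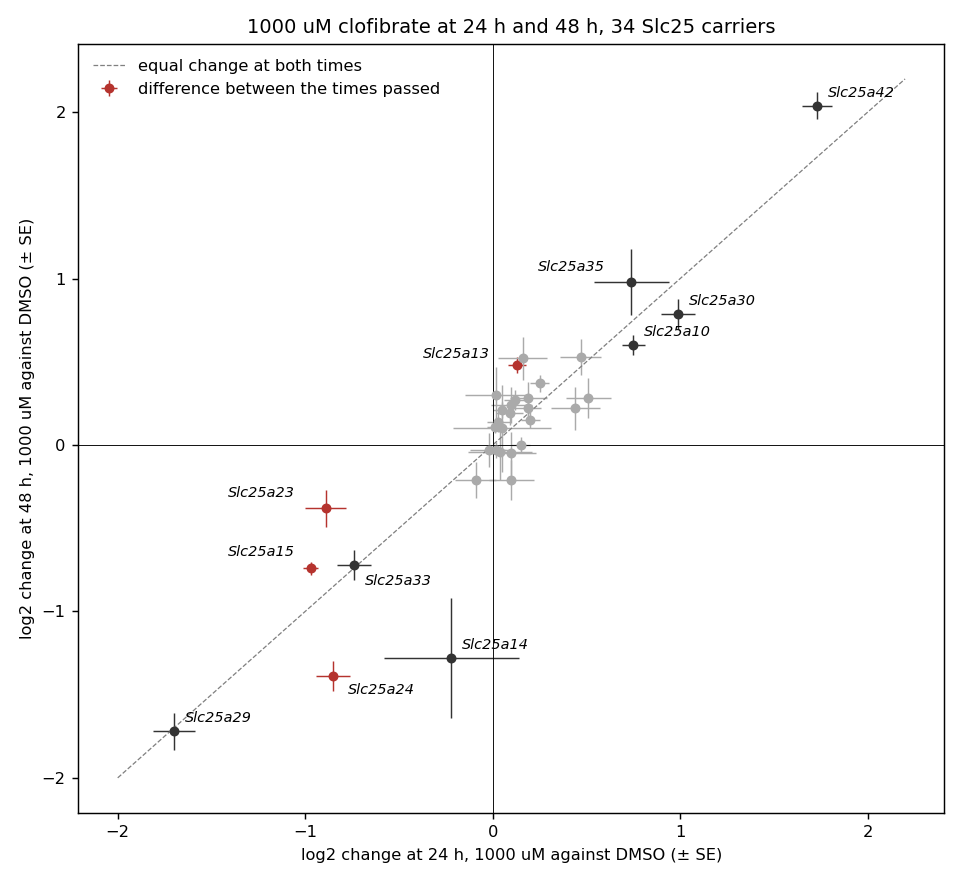
Log2 change at 1000 uM against DMSO at 24 h (horizontal) and 48 h (vertical) for the 34 tested carriers, each with its SE as bars; the dashed line marks equal change and red points are the 4 members whose difference between the times passed. Slc25a24 lies below the line at -0.85 and -1.39, and Slc25a23 and Slc25a13 lie above it.

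Where a member had more than 1 tested probe set, the brightest was paired with each other set, which gave 13 pairs. In none of the 4 comparisons with DMSO did a pair pass in opposite directions, and only 1 set of a pair passed in 1, 4, 2 and 3 pairs at 60 uM and 24 h, 1000 uM and 24 h, 60 uM and 48 h and 1000 uM and 48 h. Slc25a10 rose on both of its sets at 1000 uM, by 0.70 ± 0.16 and 0.54 ± 0.16 on the dimmer, and the second set of Slc25a13 rose by 0.32 ± 0.08 and 0.73 ± 0.08.

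The enzymes listed around the carriers, not all of which share a substrate with a member, rose and fell, with more rises than falls. Of 19 tested enzymes of this list, 9 rose and 5 fell at 1000 uM and 24 h, beside 13.4% and 20.5% of all genes. Then 10 rose and 4 fell at 48 h, beside 17.1% and 26.8%. The medians were 0.07 and 0.20, beside -0.058 and -0.057 over all genes. At 60 uM 7 rose and 2 fell at 24 h, beside 4.55% and 3.76% of all genes. For 48 h these counts were 7 and 3, beside 5.7% and 5.79%. With spiked-in scaling the splits at 1000 uM were 10 and 3 at 24 h and 13 and 2 at 48 h, and at 60 uM 7 and 0 and 5 and 0. Pank1, the kinase that starts coenzyme A synthesis, rose by 1.76 ± 0.05 and 1.79 ± 0.05 at 1000 uM, beside the coenzyme A carrier Slc25a42. Coasy, coenzyme A synthase, had mean signals of 2933 ± 155 in DMSO and 2760 ± 310 at 1000 uM at 24 h (SD, n = 5). At 48 h they were 3020 ± 292 and 3330 ± 352. Gpd2 and Gpd1, the mitochondrial and cytosolic enzymes of the glycerol phosphate shuttle, rose by 2.50 ± 0.10 and 1.72 ± 0.05 at 24 h and by 2.91 ± 0.10 and 1.61 ± 0.05 at 48 h. Me1, malic enzyme, rose by 1.31 ± 0.06 and 1.50 ± 0.06. Ass1 of the urea cycle, which uses the citrulline that ornithine carriers let out, fell by 0.66 ± 0.04 and 0.89 ± 0.04 (limma adjusted p = 1.48e-14 and 4.42e-18). Otc, the matrix enzyme that makes citrulline, fell by 0.79 ± 0.12 at 24 h and was at 0.20 ± 0.12 at 48 h (0.188). Of the other listed urea cycle genes, Cps1 was at -0.31 ± 0.05 and -0.19 ± 0.05. Arg1 had mean signals of 82810 ± 3560 in DMSO and 77310 ± 3890 at 1000 uM at 24 h (SD, n = 5). At 48 h they were 77370 ± 5810 and 81370 ± 1270. Those of Asl were 23460 ± 2120 and 21300 ± 1310 at 24 h and 22810 ± 580 and 16140 ± 941 at 48 h.

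Of 13 genes that import the carriers into the inner membrane, 7 rose and 0 fell at 1000 uM and 24 h, beside 13.4% and 20.5% of all genes. Then 4 rose and 1 fell at 48 h, beside 17.1% and 26.8%, and the medians were 0.21 and 0.07. At 60 uM 2 rose at 24 h and 1 at 48 h, beside 4.55% and 5.7% of all genes. None of the list fell there, beside 3.76% and 5.79%. With spiked-in scaling 11 rose and 0 fell at 1000 uM and 24 h and 6 rose and 0 fell at 48 h, and the rise at 60 uM and 48 h was lost. Timm10b, a small chaperone of the intermembrane space, rose by 0.49 ± 0.06 and 0.61 ± 0.06, and Tomm70, the outer membrane receptor for carrier precursors, by 0.38 ± 0.06 and 0.16 ± 0.06. Timm10, a chaperone of the same space, rose by 0.36 ± 0.05 at 24 h and was at 0.10 ± 0.05 at 48 h. Timm22, the channel that inserts them, was at -0.09 ± 0.07 and -0.18 ± 0.07, and only the value at 48 h passed (0.0345, limma).

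Of 19 tested genes for other mitochondrial transporters and channels, 4 rose and 4 fell at 1000 uM and 24 h, beside 13.4% and 20.5% of all genes. Then 7 rose and 3 fell at 48 h, beside 17.1% and 26.8%, and the medians were -0.01 and 0.14. At 60 uM 1 rose and 1 fell at each time. Shares of all genes there were 4.55% and 3.76% at 24 h and 5.7% and 5.79% at 48 h. With spiked-in scaling the split at 1000 uM was 8 and 1 at 24 h and 9 and 1 at 48 h. Ucp2, an uncoupling protein that belongs to the same protein family under another symbol, rose by 2.14 ± 0.44 and 2.96 ± 0.44 with a wide error, and Ucp3, another uncoupling protein, rose by 1.58 ± 0.38 at 48 h and was at 0.75 ± 0.38 at 24 h. Mpc2, a subunit of the pyruvate carrier, rose by 1.10 ± 0.04 and 1.32 ± 0.04, while its partner Mpc1 fell by 0.30 ± 0.04 at 24 h and was at -0.07 ± 0.04 at 48 h. Sfxn1, the serine carrier, fell by 0.59 ± 0.05 and 0.99 ± 0.05 (limma adjusted p = 3.72e-11 and 4.82e-17).

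**Figure D5:**
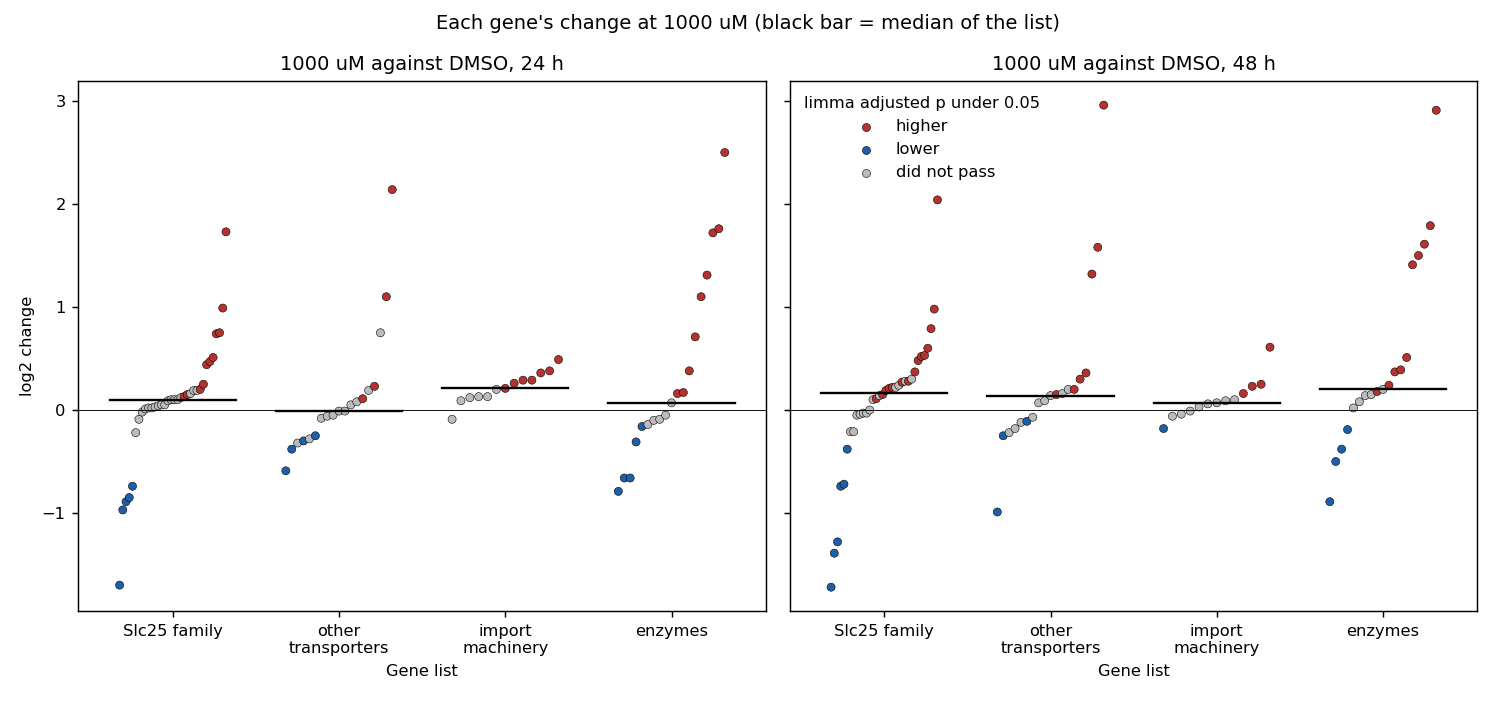
Log2 change at 1000 uM against DMSO at 24 h (left) and 48 h (right) for each tested gene of the Slc25 family and of the lists of other transporters, import machinery and enzymes; red and blue points passed, grey did not, and black bars are medians. Family medians of 0.101 and 0.171 lie near 0 with Slc25a42 and Slc25a29 at the ends, and the enzymes reach 2.50 and 2.91 with Gpd2.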

How the data were processed

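RNA of 30 wells of hepatocytes was made into biotin-labelled cRNA for rat expression arrays, 1 array per well, per the labels' protocols. The deposited values are the intensity of a probe set on a linear scale, made by the authors with MAS5, per the submitters' processing notes. The MAS5 version and its scaling are not given in these sources. All arrays had the same trimmed mean (2% cut at each end), so a change in total RNA would not show.

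Signals were put on the log2 scale with no constant added to the deposited intensity. The 18625 of 31042 probe sets past the 40th percentile of the mean over arrays (log2 8, signal 255) were tested. All 30 arrays entered 1 fit with a mean per group in limma 3.58.1 (R 4.3.3), with variances moderated along an intensity trend and Benjamini-Hochberg adjustment at 0.05, over 9 comparisons. The script was tested on simulated data. Precision is set by the 5 arrays per group. The floor of an array is the highest of 3 bacterial TrpnX control sets, and that of a group is their mean over its arrays, log2 5.70 to 6.31. Where a group mean lay under its floor, the fold is a bound.

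Genes come from the platform's annotation, with symbols updated to GRCr8, and a probe set with several symbols was left out. Promoters are RefSeq's, on the same build. The members and lists were chosen with earlier results of these data known. Any member could be named. Signals of all arrays are given for the 10 largest changes at 1000 uM among members that passed, for members whose effect differed between the times, and for Slc25a34. From each list, up to 4 genes with the largest changes at 1000 uM are named. Timm22, Mpc1, Ass1, Otc, Coasy, Cps1, Asl and Arg1 fall outside this rule and were chosen after their values were seen. Alternatives were 3 other scalings, a constant of 50, 2 other filters, no intensity trend, only the groups compared, other probe sets and each array left out in turn, and, added after seeing the data, a block for rounds of the running numbers in the titles.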

Additional observations from a re-analysis of the deposited data

Results flagged for a closer look

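In 72 groups of 5 arrays, 6 for each of the 12 members given in full, 4 groups held 1 array far from the others, judged by its gap to the nearest array over the whole range of log2 signals. Chance sets an array apart in about 1 in 20 groups. Slc25a15 in DMSO at 24 h had replicate 3 lowest, at a signal of 17499 and a gap of 0.717 of the range. Slc25a23 in DMSO at 24 h had replicate 1 highest, at 1221 and 0.757. Slc25a10 at 1000 uM and 24 h had replicate 2 lowest, at 6271 and 0.715. Slc25a34 at 60 uM and 24 h had replicate 3 highest, at 205 and 0.888, and at 48 h replicate 3 of 60 uM was again the highest, at 187, although replicate numbers are only names here.

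The log2 effect of 1000 uM at 48 h minus that at 24 h passed the limma test of the difference for 4 members, at 0.34 for Slc25a13, 0.22 for Slc25a15, 0.50 for Slc25a23 and -0.53 for Slc25a24.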

How the results depend on the processing

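Over the 9 comparisons, the number of members passing stayed within 1.5 times of the value reported under most alternatives. At 1000 uM and 24 h it was 16, and 25 with spiked-in scaling. For the difference of the 1000 uM effect between the times it was 4, and 1 with median centring and 1 with spiked-in scaling. For 48 h against 24 h in DMSO it was 3, and 6 with quantile normalization, 7 with spiked-in scaling, 5 with a filter at the 60th percentile and 2 to 5 on leaving out 1 array, with 5 without DMSO replicate 4 of 48 h. Leaving out 1 array gave 14 to 16 at 1000 uM and 24 h and 18 to 21 at 1000 uM and 48 h. The causes were not tested. Other probe sets reversed 3 values: the effect difference of Slc25a15 was -0.06 and -0.03 on 2 of its 4 other tested sets and 0.21 and 0.20 on the others, and the change of Slc25a32 at 1000 uM and 48 h was -0.19. Among single members, 0 of 3740 values on leaving out 1 array and 0 of 2700 under other settings reversed, while 68 and 47 lost and 23 and 55 gained the threshold. Members under the floor have no order of signals, and 5 arrays per group limit the precision of small changes. The labels give no replicate numbers, but the running numbers that end the titles go through the 6 groups in 5 rounds. Over probe sets, arrays of 1 round deviated together weakly at most, as 1 of 75 pairs correlated over 0.1 (range -0.0505 to 0.109). In any 2 groups 1 to 6 of 10 arrays correlated best with their own round, with 5 rounds to choose from. The rounds were not taken as pairs, and whether a weak deviation was shared within rounds was not tested. A fit with the round as a replicate block, chosen after seeing the data, gave 5 members for 48 h against 24 h in DMSO, adding Slc25a10 and Slc25a39, and the same members as without the block in the other 8 comparisons. Over all genes the block gave somewhat more calls, 1440 higher and 2246 lower at 1000 uM and 24 h, beside 1420 and 2182 without it.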
